A study of Homo sapiens with 10 samples.

Results

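The genes described are the protein-coding genes of the human cytosolic ribosome, taken by symbol: RPL or RPS followed by a digit, with RPSA, RPLP0, RPLP1 and RPLP2, and without the RPS6K kinases, pseudogenes and RPS19BP1. The rule gave 90 genes, of which 77 encode the usual ribosomal proteins, 10 are paralogs and 3 are readthrough genes that join a ribosomal protein gene to its neighbour. The table of NB4 cells listed 88 of the 90 among 21958 genes, and the table of Kasumi-1 cells listed 15 among 10801 named genes. All 15 were also in NB4, and the other 2 members, both paralogs of RPS4X, were listed in neither table and are not analysed here.

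The study sequenced mRNA libraries of a pair of human acute myeloid leukaemia lines kept with and without an agent called JOA, whose composition the labels do not give. Kasumi-1 cells, which carry a RUNX1-RUNX1T1 fusion, were kept for 48 h with 1 µM JOA (3 libraries) or with control (3 libraries). NB4 cells, an acute promyelocytic line with a PML-RARA fusion, were kept for 48 h with 1 µM JOA (2 libraries) or with control (2 libraries). What the control contained is not stated, and the source label of the NB4 JOA libraries names I13 while the titles, agent and treatment name JOA.

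Each ribosome joins a small subunit, which decodes mRNA, to a large subunit, which forms the peptide bond, and nearly every ribosomal protein is present once per particle. The mRNAs of these proteins share a start made of a cytosine and a run of pyrimidines, the 5′ terminal oligopyrimidine (TOP) motif, through which mTORC1 and the RNA-binding protein LARP1 set their translation and stability together. Several ribosomal proteins act outside the ribosome as well: RPL5 and RPL11 bind MDM2 when ribosome assembly is disturbed, and mutations in RPS19 and other members cause Diamond-Blackfan anaemia, a failure of red cell production.

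The start region of 13 members on which the results turn is shown to let the pyrimidine starts be read directly. Each line has the 12 bases before the annotated start and the 18 bases from it, 5′ to 3′ on the gene's strand, from RefSeq on GRCh38.p14. Capitals mark a cytosine at the start with the unbroken run of C and T that follows, where that run has at least 4 bases.
RPS23 (chr5:82278337-82278366, minus strand): tgcggtgcttctCTCTTTCgctcaggcccg
RPL41 (chr12:56116621-56116650, plus strand): aacttcgcctttCTCTCggccttagcgcca
RPS24 (chr10:78033851-78033880, plus strand): cgaatcgtggttCTCTTTTCCTCCTTggct
RPS6 (chr9:19380219-19380248, minus strand): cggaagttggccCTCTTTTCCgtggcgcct
RPS27 (chr1:153990750-153990779, plus strand): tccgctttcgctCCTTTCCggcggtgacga
RPS27L (chr15:63157460-63157489, minus strand): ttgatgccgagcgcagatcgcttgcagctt
RPL22 (chr1:6199578-6199607, minus strand): ttcgctcacctcCCTTTCTaactccgctgc
RPL22L1 (chr3:170870178-170870207, minus strand): ggccgtagcttcCTCTCTgctctcgcggcc
RPL36A (chrX:101390999-101391028, plus strand): gcctcgcggtttCTTTCTTTCCgcgccgat
RPL36AL (chr14:49620609-49620638, minus strand): tttcttccctttcctgttaggcgagagctg
RPL26 (chr17:8383176-8383205, minus strand): cagcgtgtagttCTCTTCCCTTTTgcggcc
RPL26L1 (chr5:172958717-172958746, plus strand): cttccaggggtcggcgaacgaaacgcggag
RPS29 (chr14:49598693-49598722, minus strand): cgagcgcgcagctggcagcggtggttgttt

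Of these 13 starts, RPS24 has a run of 14 pyrimidines and RPL41 one of 5, while the annotated starts of RPS27L, RPL36AL, RPL26L1 and RPS29 have no run of that length after a cytosine. Over all members with a RefSeq promoter, 49 of 72 (68.1%) held such a start, against 988 of 15843 genes of all kinds (6.24%). The share was 46 of 62 (74.2%) among the usual ribosomal protein genes and 2 of 8 (25.0%) among the paralogs. It was 6 of 69 (8.70%) among mitochondrial ribosomal protein genes. Within the window of 300 bases, from 250 before the start to 50 after it and on both strands, CTTTCC occurred in 47.2% of the members and 32.0% of all genes. CCGGAAG, the core bound by ETS-family factors, occurred in 33.3% of the members and 16.5% of all genes, and AAGATGGC, the core bound by YY1, in 9.72% and 4.66%. The shares for GGGCGG were 56.9% and 64.3%, for CACGTG 6.94% and 10.9%, and for TATAAA 11.1% and 12.4%. A match of CTTTCC can lie within a pyrimidine start and can share its last bases with CCGGAAG, and all these are matches of letters within these windows only.

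In Kasumi-1 the libraries with JOA held slightly less mRNA of most listed ribosomal protein genes, and the test without pairing called none of them. RPS23 was lower in all 3 JOA libraries and was the 1 member of 14 that passed the test when libraries of the same number were compared as pairs. That paired test called 8.17% of everything tested in this line, 2.06% as lower. With any 1 pair left out it called 0, and RPS23 was lost. In NB4 most members were slightly higher with JOA, as were 66.2% of all genes, and none passed the test. After median-ratio scaling 54 of the 87 tested members had changes above 0, against 49.5% of all genes. The deposited values are FPKM in Kasumi-1 and TPM in NB4, both read levels per transcript length, and they were scaled separately, so that levels are not set against each other across the lines. The tests used limma on log2(value + 1) over all genes with a value of at least 1 in 3 libraries of Kasumi-1 or 2 of NB4. A gene was called where its Benjamini-Hochberg adjusted p was under 0.05, and changes on this scale understate those of genes at low level. Nothing states that replicates were separate cultures, so the p-values measure the spread between these libraries only, which may be technical. Summed FPKM ran between 265821 and 277628 per Kasumi-1 library, with depths of 91.4 to 100% of that of control 1. The depth of the NB4 libraries is unknown.

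Both lines carried myeloid markers, with MPO (myeloperoxidase) at 5289 to 5856 FPKM with JOA and 5371 to 6096 FPKM in control Kasumi-1 cells. Of the 10 markers set beforehand, Kasumi-1 listed 4, which summed to 5381 to 5951 FPKM with JOA and 5462 to 6185 FPKM in control. In NB4 cells MPO stood at 5886 and 4679 TPM with JOA and at 7983 and 7693 TPM in control, and the 10 myeloid markers together at 5664 to 6967 TPM with JOA and 9150.4 to 9251 TPM in control. Of the 10, 7 had log2 changes below 0, against 33.8% of all genes, and the median of the 10 was -0.43. Limma called 0 of the 10 without pairing. With libraries paired by number it called 3, all lower, where 59 of 12941 genes were called lower. The other 3 had log2 changes above 0, among them CD33 and ANPEP. CD33 had 72.2 and 75.4 TPM with JOA and 58.4 and 49.8 TPM in control, and ANPEP 269 and 363 TPM with JOA and 232 and 261 TPM in control. The T-cell genes CD3E and CD2 were under 0.1 TPM in every NB4 library, whereas CD3D was at 31.8 and 47.3 TPM with JOA and at 26.1 and 27.4 TPM in control. The 5 epithelial and fibroblast markers summed to 53.2 to 54.9 TPM with JOA and 38.3 to 39.3 TPM in control, nearly all of it EPCAM, KRT8 and KRT18, with COL1A1 and COL1A2 under 0.3 TPM. Kasumi-1 listed 1 of these 5, at 33.1 to 43.3 FPKM with JOA and 35.5 to 44.4 FPKM in control. In NB4 2 B-cell genes were listed, which summed to 6.22 to 7.02 TPM with JOA and 5.84 to 5.97 TPM in control. No erythroid marker passed the filter, and the part of any of these shifts in the results was not tested.

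The 15 members listed for Kasumi-1 are a small share of the family, since 37.5% of the rows of that table, holding 45.8% of its FPKM, could be matched to a symbol. Their levels differed widely, between 0.946 FPKM for RPS10 and 1138 FPKM for RPL8 (means of 6 libraries), with a median of 241 FPKM. RPS10 and RPL26 encode proteins of every ribosome, yet RPL26 had only 1.75, 1.15 and 2.73 FPKM with JOA and 1.68, 0.832 and 2.45 FPKM in control. The rows are labelled with sequence records, and the same table gives 13 rows to ribosomal protein pseudogenes, among which RPL13AP5 held 0.0765 to 0.0942% of all FPKM with JOA and 0.0809 to 0.106% in control. How much of a gene's signal lies on another row was not tested, so the levels of single members in Kasumi-1 are uncertain, and RPS10, below the filter, was not tested in that line.

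Of the 14 members tested in Kasumi-1, limma without pairing called 0 at an adjusted p under 0.05, as it called 0% of all 12100 entries tested. These entries are 6318 named genes and 5782 rows with no symbol, and all shares given for Kasumi-1 as a whole are taken over them. At an unadjusted p under 0.05 there were 3 members, all lower with JOA, against 4.68% of all entries in that direction. The same 3, RPS23, RPL41 and RPL26L1, had every JOA library below every control library, against 7.1% of all entries, and no member had the opposite order, against 16% of all entries. The log2 change was below 0 for 13 of the 14, against 38.1% of all entries, and remained so for 13 after median-ratio scaling, against 49.1% of all entries. The median log2 change of the members was -0.12, and that of all entries 0.05. The share below 0 was 38.4% among the named genes alone. With single libraries left out, the members' median lay between -0.16 without JOA library 1 and -0.05 without control library 1.

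Among proteins of the small subunit, RPS23 lies at the decoding centre. Its level was 43.9, 40.1 and 42.6 FPKM with JOA, against 56.0, 49.3 and 56.1 FPKM in control. Every JOA library was below every control library, and the log2 change was -0.34 (SE 0.07, limma adjusted p = 0.132 without pairing). Same-numbered libraries of this line deviated together, and limma with the replicate number as a block gave RPS23 an SE of 0.04 and an adjusted p of 0.0290. It was then the 1 member called, where this blocked test called 8.17% of all entries, 2.06% as lower and 6.11% as higher. With any 1 pair left out, the blocked test called 0 entries of any kind, and RPS23 missed the threshold (lowest adjusted p of a member 0.0763). For RPS3, which lines the mRNA entry channel and also binds MDM2, the values were 436, 398 and 383 FPKM with JOA and 483, 398 and 444 FPKM in control (log2 change -0.12, SE 0.09). RPS3A had 314, 289 and 277 FPKM with JOA and 347, 289 and 329 FPKM in control. RPS24, mutated in some families with Diamond-Blackfan anaemia, had 413, 371 and 360.3 FPKM with JOA and 421, 372 and 398 FPKM in control. For RPS3, RPS3A and RPS24 the groups overlapped, and neither test made a call.

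Among proteins of the large subunit, RPL41 encodes the smallest ribosomal protein, a short basic peptide. It had 917, 878 and 807 FPKM with JOA, against 1087, 968 and 1001 FPKM in control. The groups did not overlap, and the log2 change was -0.23 (SE 0.09, limma adjusted p = 0.256, and 0.0545 with the block). RPL26L1, the near-identical paralog of RPL26, had 12.7, 12.9 and 14.1 FPKM with JOA and 14.2, 16.6 and 15.5 FPKM in control. Its groups did not overlap either, and its log2 change was -0.21 (SE 0.07), at a limma adjusted p of 0.249, or 0.0797 with the block. RPL26L1 passed the threshold only with the block and median-ratio scaling together (adjusted p = 0.0488), a combination chosen after seeing the data, where 4.02% of all entries were called lower. Reads of RPL26 and RPL26L1 can be split between them by the counting, and the values of both are uncertain for that reason.

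For the remaining large-subunit members the groups overlapped in every case. RPL8, a protein near the peptidyl transferase centre, had 1129, 1067 and 1016 FPKM with JOA and 1334, 1109 and 1169.7 FPKM in control. RPL22, known in the mouse as dispensable for life, had 155, 132 and 132 FPKM with JOA and 163, 148 and 153 FPKM in control (log2 change -0.15, SE 0.08, limma adjusted p = 0.415). RPL7A had 964, 921 and 826 FPKM with JOA and 1071, 917 and 948 FPKM in control. RPL27A, RPL13, RPL10 and RPL15 had log2 changes between -0.09 and -0.04, each with an SE of 0.08 or 0.09. RPL27A had 178, 156 and 152 FPKM with JOA and 188, 154 and 175.0 FPKM in control. RPL13 had 375, 371 and 331 FPKM with JOA and 415, 345 and 371 FPKM in control. RPL10, which helps to build the peptidyl transferase centre, had 199, 189 and 172 FPKM with JOA and 205, 180.0 and 193 FPKM in control. RPL15 had 254, 245.0 and 214 FPKM with JOA and 262, 240.1 and 230.4 FPKM in control. In all 4 of these genes at least 1 JOA library lay above the lowest control library. RPL26 was the 1 tested member with a change above 0 (log2 change 0.13, SE 0.28).

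**Figure D1:**
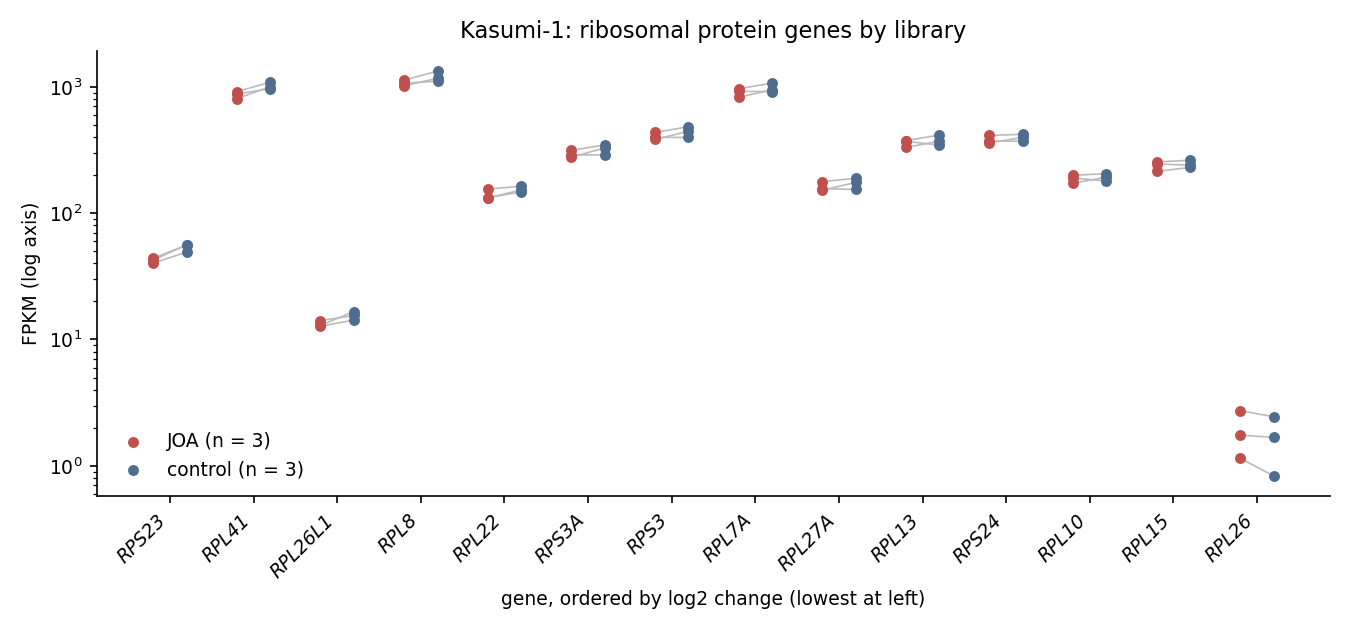
FPKM (log axis) of the 14 tested ribosomal protein genes in each Kasumi-1 library, with JOA at the left and control at the right of each gene and a grey line joining libraries of the same number. The genes are ordered by log2 change, and for RPS23, RPL41 and RPL26L1 all 3 JOA points lie below all 3 control points.

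A single library held the highest or lowest value of most members in Kasumi-1. JOA library 3 was lowest for 11 of the 14 tested members, and control library 1 was highest for 11. The same counts over all entries were not made, so whether these orders are particular to the members was not tested. The 15 members together took 2.00, 1.91 and 1.75% of all FPKM with JOA and 2.21, 1.95 and 1.98% in control, a difference of -0.156 percentage points (means 1.89 ± 0.127% and 2.04 ± 0.141%, SD, n = 3 each). Each JOA share was below the control share of the same number, but JOA library 1 lay above control libraries 2 and 3. Without control library 1 the difference was -0.0752 percentage points. Without JOA library 3 it was -0.0882 percentage points.

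In NB4 nearly the whole family was listed. The usual ribosomal protein genes ranged between 92.4 TPM for RPS9 and 7833 TPM for RPS24 (means of 4 libraries). Their median was 1808 TPM. RPL9 was also low, with means of 174 TPM with JOA and 177 TPM in control. Transcripts not annotated as coding held 39.8% of the TPM of RPS9 and 33.1% of that of RPL9. Whether reads of such genes lie on missing or unmatched transcripts was not tested, so these levels are uncertain. Of the 100 protein-coding genes with the highest level, 59 were members with JOA and 55 in control, and of the highest 200, 75 were members in each group. All 88 listed members together made up 18.8 and 17.7% of all TPM with JOA, against 17.2 and 15.7% in control (means 18.2 ± 0.808% and 16.5 ± 1.12%, SD, n = 2 each). Both JOA shares lay above both control shares, with a difference of 1.78 percentage points. Genes of the mitochondrial chromosome, which are part of the same total, made up 11.2 and 13.1% of TPM with JOA and 14.6 and 16.4% in control. With these genes left out of the total, the members' shares were 21.2 and 20.3% with JOA and 20.2 and 18.7% in control, so that the groups stayed apart by a small margin and differed by 1.30 percentage points. Without control library 2 the difference in the share of all TPM was 0.996 percentage points.

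The balance of the subunits was nearly constant. Large-subunit members made up 63.3 and 62.7% of the members' TPM with JOA and 63.1 and 63.1% in control, a difference of -0.149 percentage points. Pseudogenes of ribosomal proteins, whose sequences can take reads from their parents, made up 0.519 and 0.496% of all TPM with JOA and 0.483 and 0.445% in control.

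**Figure D2:**
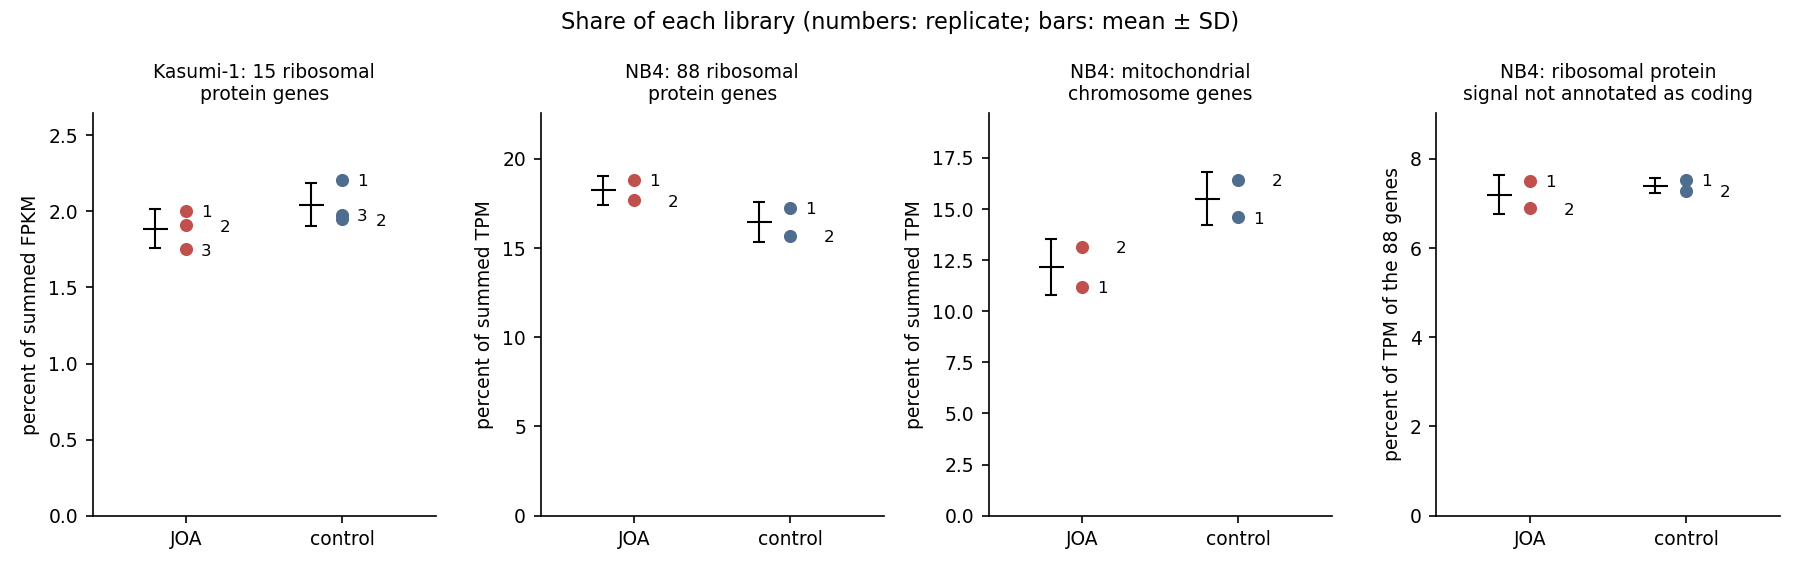
Share of each library, in percent of summed FPKM (Kasumi-1) or TPM (NB4), with JOA at the left and control at the right, numbers marking the replicate and bars the mean ± SD. The groups overlap for the 15 genes of Kasumi-1 and for the signal of NB4 ribosomal protein genes not annotated as coding, and they do not overlap for the 88 genes of NB4 or for the mitochondrial chromosome genes, which lie lower with JOA.

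Of the 87 members tested in NB4, limma called 0 at an adjusted p under 0.05, where it called 0.00773% of all 12941 genes, and the lowest adjusted p of a member was 0.379. At an unadjusted p under 0.05 there were 5 members, all higher with JOA: RPS29, RPL22, RPL31, RPL36A and the readthrough gene RPL36A-HNRNPH2, against 8.2% of all genes in that direction. The log2 change was above 0 for 74 members and below 0 for 13, where 66.2% of all genes were above 0. Its median was 0.13 for the members and 0.08 for all genes. With single libraries left out, the members' median lay between 0.07 without control library 2 and 0.19 without control library 1. The standard error of a single member ranged between 0.09 and 0.53, with a median of 0.11. Both JOA libraries were above both control libraries for 50 members, against 32.5% of all genes, and below them for 0, against 11% of all genes.

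These counts moved with the scaling, though the median of the members stayed above 0 and above that of all genes. After median-ratio scaling the change was above 0 for 54 of the 87 members, against 49.5% of all genes, with a median of 0.03 for the members and -0.00 for all genes. The libraries did not overlap for 27 members with JOA above (19.8% of all genes) and 6 with JOA below (20.1%). With the mitochondrial chromosome genes left out before rescaling, 65 members were above 0, against 57.1% of all genes, and 35 had JOA above (24.1% of all genes) and 3 JOA below (15.9%). With transcripts annotated as coding only, 72 were above 0, against 68%, and 48 had JOA above (35.1%) and 2 JOA below (10.1%). A single library again held most of the extremes: control library 2 was lowest for 63 of the 87 members and JOA library 1 was highest for 61. The same counts over all genes were not made, so whether these orders are particular to the members was not tested.

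**Figure D3:**
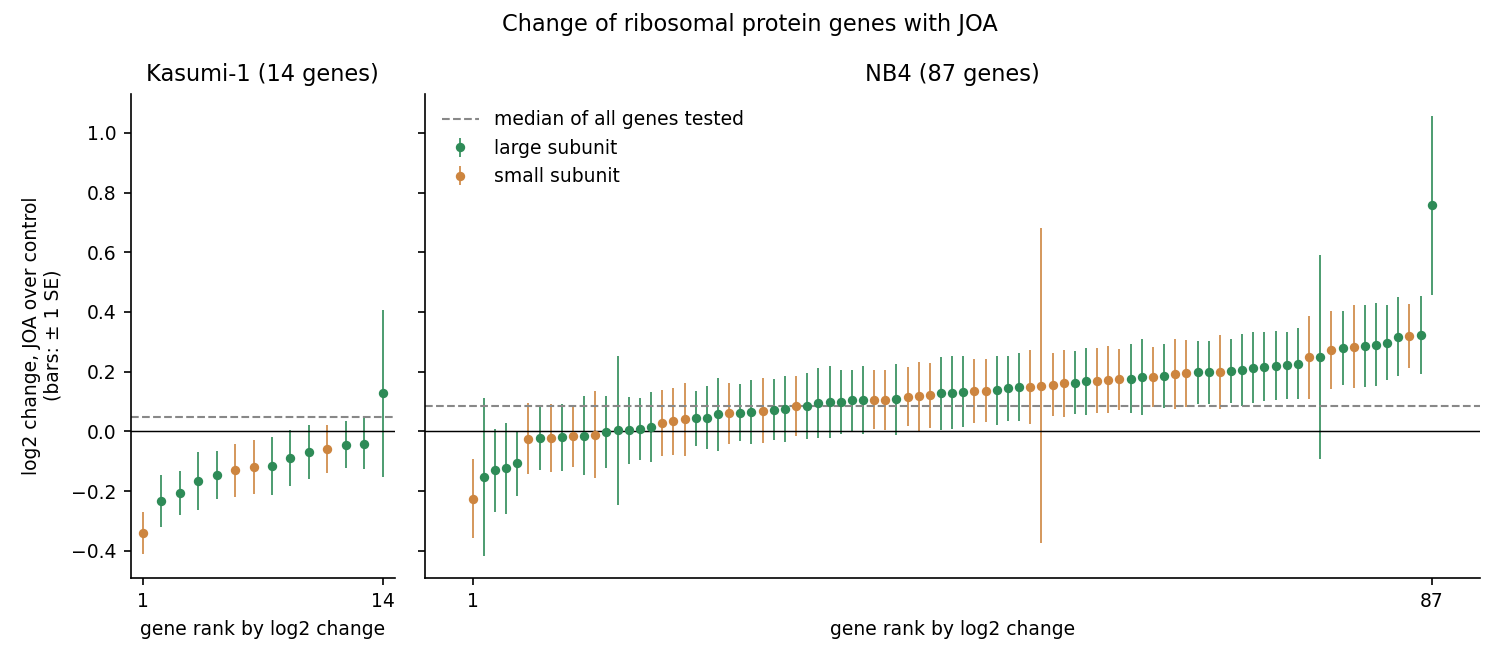
Log2 change, JOA over control, of every tested ribosomal protein gene, ranked within each line, with bars of 1 SE and colours for the subunit; the dashed line is the median of all genes tested. In Kasumi-1, 13 of 14 genes lie below 0, and in NB4 74 of 87 lie above 0, most of them within 1 SE of the median of all genes.

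**Figure D4:**
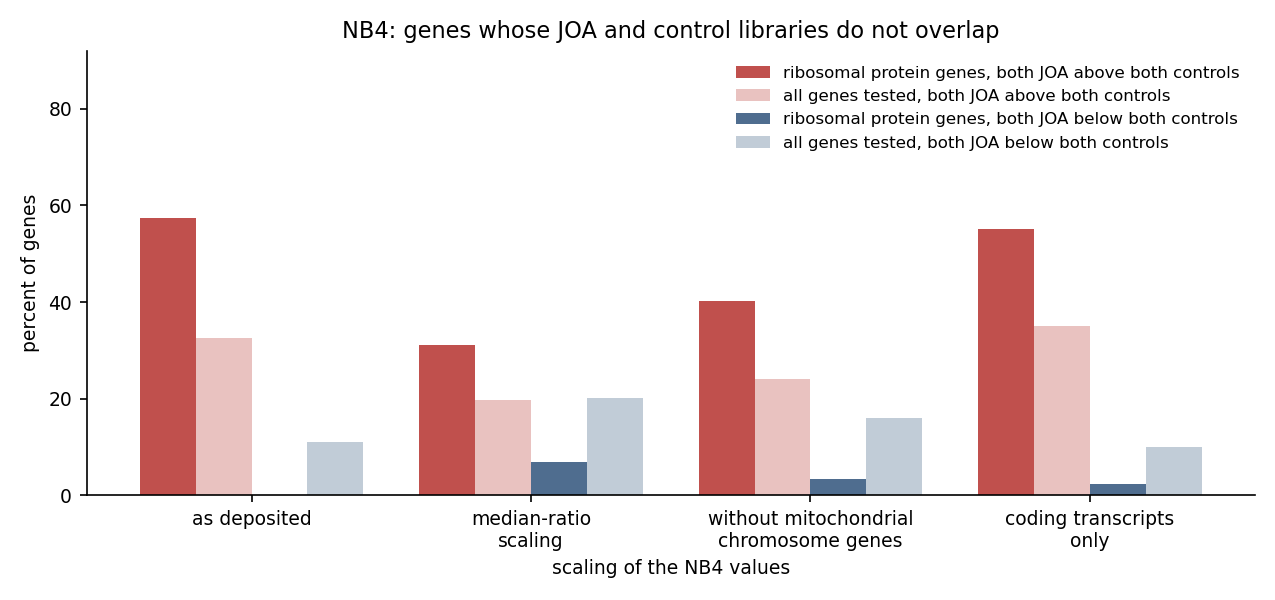
Percent of genes in NB4 whose JOA and control libraries do not overlap, for the 87 ribosomal protein genes (dark bars) and all genes tested (pale bars), under each scaling of the values. The JOA-above bars of the ribosomal protein genes stand highest for the deposited values and lowest after median-ratio scaling, where 27 of 87 remain.

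Among the small-subunit genes of NB4, RPS29, a zinc-binding protein mutated in some families with Diamond-Blackfan anaemia, had 980.3 and 941 TPM with JOA, against 824 and 718 TPM in control. Both JOA values lay above both control values, and the log2 change was 0.32 (SE 0.11, limma adjusted p = 0.379), or 0.22 after median-ratio scaling. RPS24, the member at the highest level, had 8395 and 8775 TPM with JOA and 7713 and 6450.4 TPM in control (log2 change 0.28, SE 0.14, limma adjusted p = 0.516). RPS6, the ribosomal target of the S6 kinases, had 6622 and 6764 TPM with JOA and 6251 and 5085 TPM in control. RPS27 had 5109 and 4813 TPM with JOA and 4469 and 3765 TPM in control. In each of these 4 genes control library 2 was the lowest of all.

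RPS23, the member called lower in the paired test of Kasumi-1, had 3726 and 3350 TPM with JOA and 3292 and 2876 TPM in control NB4 cells (log2 change 0.20, SE 0.12, limma adjusted p = 0.601). The groups did not overlap, with JOA above. RPS26, which contacts the mRNA upstream of the start codon, had the lowest change of all tested members, with 556 and 598 TPM with JOA and 597 and 762 TPM in control. Its groups overlapped narrowly, and the log2 change was -0.23 (SE 0.13, limma adjusted p = 0.577). RPS2 had 3006 and 2603 TPM with JOA and 2907 and 2785 TPM in control, and RPS21 had 1837 and 1578 TPM with JOA and 1705 and 1752 TPM in control. For RPS2 and RPS21 the control values lay between the JOA values.

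Of 5 small-subunit genes tied to disease or to other roles, RPS19, RPS14, RPSA and RPS27A had both JOA libraries above both control libraries. That order held for 32.5% of all genes, and for 19.8% after median-ratio scaling. RPS19, the gene most often mutated in Diamond-Blackfan anaemia, had 1048 and 987 TPM with JOA and 973 and 918 TPM in control. RPS14, whose loss of 1 copy marks the 5q- syndrome, had 707 and 661 TPM with JOA and 654 and 616 TPM in control. Both had a log2 change of 0.11 (SE 0.10), which was 0.01 after median-ratio scaling. RPSA, also known as the laminin receptor, had 1327 and 1397 TPM with JOA and 1315 and 1256 TPM in control. RPS27A, made as a fusion with ubiquitin, had 1834 and 1769.7 TPM with JOA and 1703 and 1577 TPM in control. RPS4X had 1353 and 1268 TPM with JOA and 1278 and 1134 TPM in control, with overlapping groups, and none of the 5 was called.

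Among the large-subunit genes of NB4, RPL22 had 881 and 915 TPM with JOA, against 810.2 and 635 TPM in control. The JOA values lay above both control values, and the log2 change was 0.32 (SE 0.13, limma adjusted p = 0.451). RPL31, at the rim of the exit tunnel, had 2696 and 2555 TPM with JOA and 2349.7 and 1888 TPM in control (log2 change 0.32, SE 0.13, limma adjusted p = 0.458). RPL36A had 4499.9 and 4591 TPM with JOA and 3998 and 3420.3 TPM in control (log2 change 0.30, SE 0.12, limma adjusted p = 0.460). RPL7 had 2627 and 2929 TPM with JOA and 2534 and 2030.1 TPM in control. RPL41 had 7669 and 7816 TPM with JOA and 6962 and 5802 TPM in control. In all 5, which are among the 8 highest changes of members in this line, the groups did not overlap and control library 2 was the lowest. Both JOA libraries lay above both controls for 32.5% of all genes, and for 19.8% after median-ratio scaling. Control library 2 was the lowest for 63 of the 87 tested members.

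The readthrough gene RPL36A-HNRNPH2 had the highest fitted change of the family at a low level, with 7.15 and 6.67 TPM with JOA and 5.42 and 2.41 TPM in control (log2 change 0.76, SE 0.30, limma adjusted p = 0.441). It shares exons with RPL36A, and its reads cannot be told apart from those of RPL36A with certainty. At the other end, RPL35, near the exit tunnel, had 2959.8 and 2419 TPM with JOA and 2727 and 3142 TPM in control (log2 change -0.13, SE 0.14). RPL8 had 1448 and 1289 TPM with JOA and 1433 and 1512 TPM in control (log2 change -0.11, SE 0.11). RPL9 had 179 and 168 TPM with JOA and 166 and 187 TPM in control. RPL38, known in the mouse for its part in the translation of Hox mRNAs, had 1395 and 1202 TPM with JOA and 1289 and 1338 TPM in control. For RPL35, RPL8, RPL9 and RPL38 the groups overlapped.

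RPL5, RPL11, RPL23 and RPS3, which are among the members known to bind MDM2, the ubiquitin ligase of p53, had changes above 0, as had 66.2% of all genes, and no call. RPL5 had 1640.5 and 1716 TPM with JOA and 1594 and 1329 TPM in control, and RPL11, its partner in the 5S ribonucleoprotein, 2669 and 2415 TPM with JOA and 2453 and 2274 TPM in control. RPL23 had 2909 and 3149 TPM with JOA and 2681 and 2512 TPM in control. RPS3 had 3257 and 2889.6 TPM with JOA and 2950.4 and 2594 TPM in control. The groups were apart with JOA above for RPL5 and RPL23, an order held by 32.5% of all genes. They overlapped for RPL11 and RPS3. Log2 changes of these genes lay between 0.10 and 0.22, with standard errors of 0.11 or 0.12.

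The stalk of the large subunit, which recruits elongation factors, is built of RPLP0, RPLP1 and RPLP2. RPLP0 had 4509 and 4388 TPM with JOA and 4185 and 3910.4 TPM in control, with the groups apart (log2 change 0.14, SE 0.11). RPLP1 had 1705 and 1547 TPM with JOA and 1608 and 1477 TPM in control. RPLP2 had 1456 and 1309 TPM with JOA and 1333 and 1341 TPM in control. For RPLP1 and RPLP2 the groups overlapped, and after median-ratio scaling their log2 changes were -0.02 and -0.05.

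The paralogs in NB4 stood far below the genes they resemble. RPL22L1 had 39.9 and 40.8 TPM with JOA and 38.5 and 34.9 TPM in control, with the groups apart, as for RPL22 itself (log2 change 0.13, SE 0.12). Transcripts not annotated as coding held 74.4 and 66.6% of the TPM of RPL22L1 with JOA and 64.0 and 54.4% in control. With coding transcripts alone its log2 change was -0.31 (SE 0.17, limma adjusted p = 0.494), so that the sign for this gene turned. RPS27L, a target of p53, had 29.1 and 31.0 TPM with JOA and 28.6 and 29.7 TPM in control, with overlapping groups, while those of RPS27 were apart. RPL36AL had 257 and 258 TPM with JOA and 246 and 254 TPM in control (log2 change 0.04, SE 0.09). This was the highest level of a paralog, and its change reads -0.05 after median-ratio scaling.

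RPL39L had 23.2 and 20.3 TPM with JOA and 21.5 and 26.2 TPM in control, whereas RPL39 had 2937 and 2811 TPM with JOA and 2580.2 and 2171 TPM in control. RPL26L1 had 65.8 and 77.2 TPM with JOA and 69.3 and 71.8 TPM in control, whereas RPL26 had 2472 and 2283 TPM with JOA and 2191 and 1879 TPM in control. For RPL39 and RPL26 the JOA values lay above the control values, as they did for 32.5% of all genes. For their paralogs the groups overlapped. RPL7L1 had 96.8 and 111 TPM with JOA and 99.2 and 96.2 TPM in control, again overlapping. RPL3L, the form found in heart and skeletal muscle, had 0.754 and 1.10 TPM with JOA and 0.980 and 1.30 TPM in control, against 2176 and 2095 TPM with JOA and 2031 and 1758 TPM in control for RPL3. RPL10L, a testis form of RPL10, was listed at 0 and 0.0946 TPM with JOA and at 0 and 0.0830 TPM in control, and did not pass the filter. Whether a paralog and its parent differ in their change was not tested, and reads can be split between near-identical copies.

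**Figure D5:**
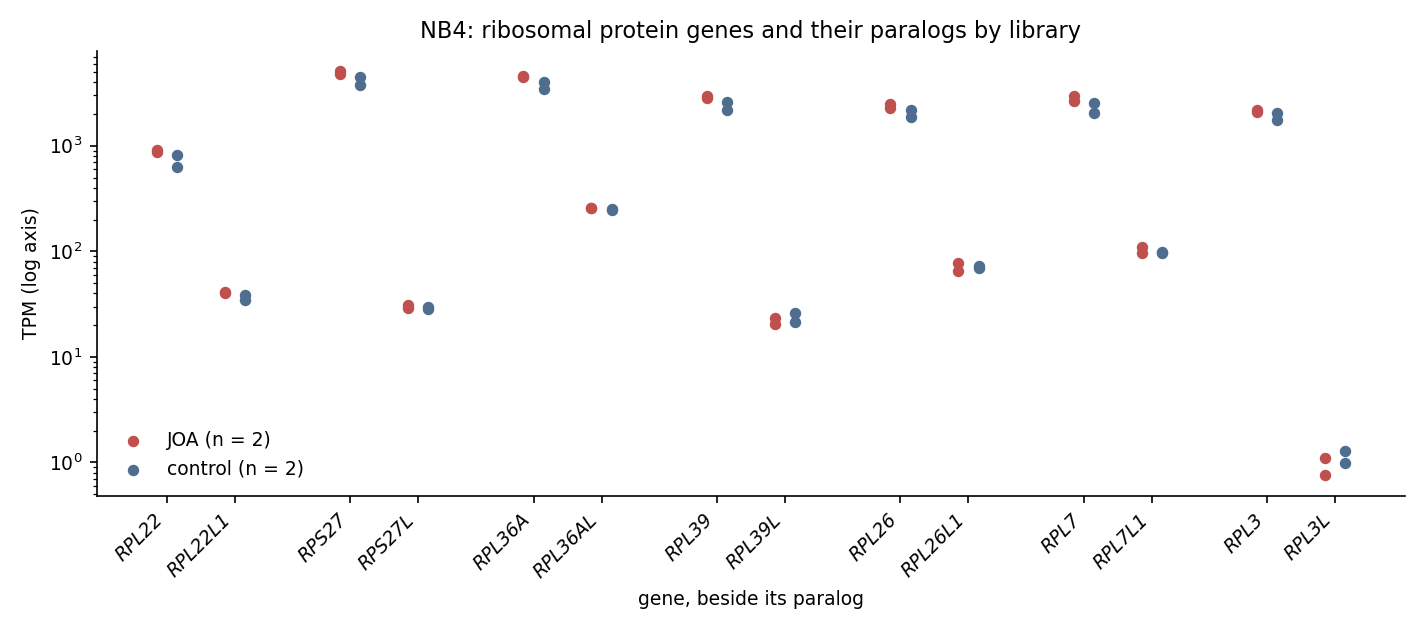
TPM (log axis) in each NB4 library of 7 ribosomal protein genes, each beside its paralog, with JOA at the left and control at the right of each gene. Every paralog lies below its parent in all 4 libraries, down to about 1 TPM for RPL3L.

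Among tested NB4 members with a RefSeq promoter, the 48 with a pyrimidine start had a median log2 change of 0.13, ranging between -0.13 and 0.76. The 21 without one had a median of 0.12, ranging between -0.23 and 0.32. RPS29, printed above without such a run at its annotated start, and RPS24, with the run of 14, had changes of 0.32 and 0.28.

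The NB4 table resolves transcripts, and 751 of its 121005 belong to members. Of the 620 that passed the filter, limma called 0, as it called 0% of 51643 transcripts in all. An unadjusted p under 0.05 was reached by 58 (29 with JOA higher, 29 with JOA lower), and by 6.72% of all transcripts (2164 higher, 1305 lower). The log2 change was above 0 for 321 of the 620 and below 0 for 299. Over all transcripts it was above 0 for 30320 and below 0 for 21323. Its median was 0.01 for the members' transcripts and 0.07 for all. Transcripts not annotated as coding held 7.50 and 6.89% of the members' TPM with JOA and 7.53 and 7.28% in control. The groups overlapped, with a difference of -0.207 percentage points, and the difference was 0.0983 percentage points without JOA library 2. In the other protein-coding genes these classes held 18.9 and 18.6% with JOA and 18.3 and 17.0% in control.

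The share differed widely between members. Transcripts not annotated as coding held 57.2 and 36.0% of the TPM of RPL13 with JOA and 59.6 and 45.9% in control, most of it in retained-intron forms, with 3095 and 1059.8 TPM with JOA and 2842 and 1611 TPM in control. In RPL13 the libraries numbered 1 stood above those numbered 2 in both groups. RPS2 showed the opposite order in its forms annotated for nonsense-mediated decay, with 135 and 738 TPM with JOA and 33.8 and 518 TPM in control. In RPL14 such transcripts held 81.7 and 79.7% with JOA and 77.7 and 78.9% in control, and in RPL35A 62.0 and 58.5% with JOA and 57.7 and 58.4% in control. With coding transcripts alone the log2 change of RPL14 was -0.06, against 0.10 over all its transcripts. For these genes much of the gene level thus comes from forms that the annotation does not treat as coding. How the authors' software shared reads among such forms was not tested.

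RPS24 is known for alternative splicing near its 3′ end, and 2 coding forms made up most of its level. RPS24-202 had 4027 and 4185 TPM with JOA and 3889 and 3349.5 TPM in control (log2 change 0.19, SE 0.11). RPS24-205 had 3766.5 and 4089.6 TPM with JOA and 3306 and 2617 TPM in control (log2 change 0.42, SE 0.14, limma adjusted p = 0.739). Both had JOA above control, and a minor coding form, RPS24-214, went the other way, with 120.2 and 98.4 TPM with JOA and 149.7 and 215 TPM in control (log2 change -0.72, SE 0.21, limma adjusted p = 0.733). None of these forms was called.

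The question whether the response of these genes differed between the lines was put to the 15 members with a value in both, in 1 fit over all 10 libraries. These include RPS10, which was below the filter in Kasumi-1. The change in Kasumi-1 minus that in NB4 was below 0 for all 15, against 59.2% of 7111 genes. Limma called 0 of the 15 without pairing, where it called 0.197% of all genes. On the deposited values 5 reached an unadjusted p under 0.05, all below 0, against 7.82% of all genes on that side. They were RPS23 at -0.54 (adjusted p = 0.166), RPL41 at -0.52, RPL22 at -0.47, RPS24 at -0.34 and RPS3A at -0.32. After median-ratio scaling 14 of the 15 were below 0, against 3647 of 7111 genes, and 3 reached an unadjusted p under 0.05. The members' median difference was -0.22, or -0.12 without NB4 control library 2. With the replicate number as a block, RPS23 was called (difference -0.54 on the log2 scale, SE 0.08, limma adjusted p = 0.0376), where 0.605% of all genes were. This call was lost with the block kept to the numbers of Kasumi-1, an alternative chosen after seeing the data (SE 0.11, limma adjusted p = 0.109), and with any 1 Kasumi-1 pair left out (lowest adjusted p 0.224). The lines differ in table, unit and row labels as well as in origin, and these cannot be told apart in this difference. In NB4 the 15 genes took 4.87 and 4.51% of TPM with JOA and 4.46 and 3.85% in control, a difference of 0.537 percentage points.

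The other genes of the pathway were taken from set lists. Of 24 translation factors and other genes with TOP mRNAs, 22 were tested in NB4, and limma called 0. Of these 22, 19 were above 0, against 66.2% of all genes, and the median log2 change was 0.15. After median-ratio scaling 14 were above 0, against 49.5% of all genes, with a median of 0.06. TPT1, a TOP mRNA that encodes the translationally controlled tumour protein, had 4205 and 4416 TPM with JOA and 3595 and 2851 TPM in control (log2 change 0.43, SE 0.14, limma adjusted p = 0.368). EEF1A1, which brings aminoacyl-tRNA to the ribosome, had 9621 and 9960.3 TPM with JOA and 9583 and 7854 TPM in control. In Kasumi-1, 7 of the list were tested, with 0 calls in either test. Of these, 5 were below 0, against 38.1% of all entries, and the median was -0.11. Among cytosolic ribosomal proteins outside the symbol rule, RACK1 had 3033 and 2812 TPM with JOA and 2795 and 2489.8 TPM in control NB4 cells. FAU had 846 and 744 TPM with JOA and 765 and 908 TPM in control.

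Of 38 nucleolar genes of ribosome assembly, 25 were tested in Kasumi-1. Of these, 20 were below 0, against 38.1% of all entries, with a median log2 change of -0.13. Without pairing 0 were called, and with the block 5 were, all lower, against 2.06% of all entries: MYBBP1A, RRS1, UTP20, GAR1 and RRP1B. None was called with any 1 pair left out. MYBBP1A had 12.1, 12.8 and 11.6 FPKM with JOA and 15.4, 15.2 and 13.7 FPKM in control (log2 change -0.26, blocked SE 0.04, limma adjusted p = 0.0375). UTP20, part of the small-subunit processome, had 7.01, 7.37 and 7.15 FPKM with JOA and 8.42, 9.18 and 8.51 FPKM in control (log2 change -0.25, blocked SE 0.05, limma adjusted p = 0.0407). In NB4 all 38 were tested, 24 were below 0, against 33.8% of all genes, the median was -0.08 and limma called 0. The members' median in NB4 was 0.13, so that assembly factors and ribosomal protein genes had medians of opposite sign in that line. That contrast was not tested.

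Mitochondrial ribosomal proteins are encoded by separate nuclear genes whose mRNAs mostly lack a pyrimidine start. In NB4, 58 of the 77 tested were below 0, against 33.8% of all genes, with a median log2 change of -0.09 and 0 calls. In Kasumi-1, 25 of 34 were below 0, against 38.1% of all entries, with a median of -0.07. With the block 3 were called lower, against 2.06% of all entries, and none with any 1 pair left out: MRPL3, MRPS34 and MRPS10. MRPL3 had 66.1, 68.3 and 62.8 FPKM with JOA and 77.5, 77.8 and 70.7 FPKM in control. Chaperones and import factors of ribosomal proteins had a median of -0.17 over 4 genes in Kasumi-1, of which IPO7 and BCCIP were called lower with the block, against 2.06% of all entries, and neither with any 1 pair left out. In NB4 their median was -0.02 over 13 genes, with 0 calls. Of 20 genes for mTORC1, LARP1 and the S6 kinases, limma called 0 in either line, with medians of -0.00 over 13 genes in Kasumi-1 and 0.03 over 20 in NB4. LARP1 had 85.2, 91.1 and 89.7 FPKM with JOA and 82.0, 84.4 and 83.3 FPKM in control Kasumi-1 cells, with the groups apart. In NB4 it had 144.5 and 137 TPM with JOA and 146.9 and 133 TPM in control, with the groups overlapping.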

How the data were processed

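Tools named in the submitters' processing notes, without version or role, are Trimmomatic, HISAT2, Cufflinks and HTSeq; the build named there is hg38. Per the labels' protocols the RNA came from Trizol and a TruSeq stranded mRNA kit. The authors deposited FPKM values for Kasumi-1, in 29053 rows of sequence records, of which 10906 matched a RefSeq symbol. For NB4 the deposited file is named for FPKM, but its columns each sum to between 999679 and 999758, so its values were taken as TPM and the planned log-scale test was kept. Its transcripts were matched to GENCODE (93.9%, the rest holding 3.04% of TPM) and summed by gene. Low Kasumi-1 values were whole multiples of 1 step in 94.8% of 6664 rows (tolerance 0.01 of a read), which gave relative depths. TPM keeps no depth.

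Fits used limma 3.58.1 in R 4.3.3 with a variance trend, on log2(value + 1), over all genes of a line (in Kasumi-1, named genes and rows with no symbol), and over all 10 libraries for the difference between lines. They were tested on simulated data. Tables were read with Python 3.11.15 and pandas 2.3.3. The members and lists were chosen with earlier results of these data known. Values per library are given for members called in any of these fits, for the 8 highest and 8 lowest changes per line with a mean of at least 5, and for a set list of paralog pairs and members with known roles; RPS23 in NB4 and the transcripts were added after their values were seen. No p is given for shares summed over members. The values of 1 gene of the lists are not reported here.

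JOA and control libraries of Kasumi-1 with the same number deviated together from the means of their groups (correlations of 0.330, 0.500 and 0.424 across genes). No crossed pair exceeded -0.06. Centring each group on its mean pushes crossed pairs below 0 where same-numbered ones are above, so they are no separate evidence. Pairing by number was planned as an alternative test. That same-numbered libraries deviate together comes from the values and not from a label.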

Additional observations from a re-analysis of the deposited data

Results flagged for a closer look

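The change of RPS23 with JOA differed between the lines by -0.54 on the log2 scale (Kasumi-1 minus NB4, SE 0.08) in the limma fit with replicate blocks, with an adjusted p of 0.0376 over 7111 genes. It was lower in all 3 JOA libraries of Kasumi-1 and higher in both JOA libraries of NB4 than in the controls of the same line. Without the block the adjusted p was 0.166. That fit paired libraries by number in both lines, although same-numbered NB4 libraries hardly deviated together across genes (correlation 0.0676). With the block kept to the numbers of Kasumi-1, chosen after seeing the data, the adjusted p was 0.109, and with any 1 Kasumi-1 pair left out it was at least 0.224. The blocked call of RPS23 within Kasumi-1 was likewise lost with any 1 pair left out. The RPS23 row of Kasumi-1 was at 42.2 ± 1.93 FPKM with JOA and 53.8 ± 3.91 FPKM in control (SD, n = 3 each), and RPL41 in the same table was at 867 ± 55.7 FPKM with JOA and 1019 ± 61.8 FPKM in control. Whether other rows of that table hold reads of RPS23 was not tested.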

How the results depend on the processing

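The count of members called in Kasumi-1 was 0, as was that of all entries. With the replicate block 1 of 14 was called, where 988 of 12100 entries were. With the block and median-ratio scaling the count was 2 of 14, where 956 of 12090 entries were called. It stayed at 0 under another pseudocount, no filter, median-ratio scaling alone and the highest row per symbol, and with single libraries or, in the block, single pairs left out (0 to 0). For the difference between lines it was 0 and became 1 of 15 with the block, where 43 of 7111 genes were called. It was 0 with the block kept to Kasumi-1 numbers, and 0 to 0 with single libraries or blocked pairs left out. In NB4 the count was 0 under every alternative run. Across genes, same-numbered NB4 libraries hardly deviated together (correlation 0.0676), though single genes such as RPL13 followed the number in both groups. Whether the NB4 numbers mark pairs is not stated. In NB4 the block called 0 members and 158 genes, against 1 gene without it, while coding transcripts alone gave 13. The Kasumi-1 share difference of -0.156 percentage points became -0.367 over matched rows, a smaller total in which the control share was 4.48% rather than 2.04%. With single libraries left out the difference in the share of all FPKM ran between -0.214 and -0.0752. The NB4 share difference of 1.78 became 0.537 over the members listed in Kasumi-1, whose control share was 4.15% rather than 16.5%. For all members it ran between 0.996 and 2.57 with single libraries left out. The difference in signal not annotated as coding, -0.207, ran between -0.511 and 0.0983, the sign turning without JOA library 2, and the cause was not tested. Of 210 values of 14 named members in Kasumi-1, 199 kept their sign and side of the threshold, 8 uncalled values changed sign and 3 became calls. Of 400 values of 41 in NB4, 374 kept both and 26 uncalled values changed sign. The depth of NB4 is unknown, and in Kasumi-1 the rows not matched to a symbol limit what can be said of the family.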
